A study of Mus musculus with 8 samples.

Results

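The density of DNase I cutting was compared between the DNSnf2h line and its parental line, both kept with tetracycline, so that in neither library had the dominant-negative protein been induced by withdrawal. Hotspots (stretches of the genome with an excess of DNase I cuts) were merged into 1 site where hotspots of the 2 lists overlapped by at least 1 bp. A site's value was the highest peak density that a library's list gave there. This gave 39221 sites, of the 99999 that result from merging all 8 lists of the series. Of these, 20111 (51.3%) were listed in both libraries, 4244 in the DNSnf2h library alone and 14866 in the parental library alone.

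All libraries came from the mouse mammary epithelial line 3134 and from 3 of its derivatives that carry a dominant-negative form of Brg1, Chd4 or Snf2h under tetracycline control (DNBrg1, DNCHD4 and DNSnf2h). Each of these 4 lines gave 1 library after 48 h with tetracycline and 1 after 48 h without it, 8 in all. With 1 library per group the differences below have no replicates behind them and no p-value. The DNSnf2h line holds a FLAG-tagged human SNF2H whose lysine 211 was changed to arginine, placed in a tetracycline-regulated retroviral vector and stably integrated into 3134 cells that already carried the tetracycline transactivator (3134Tet). The tetracycline-regulated lines were kept in 5 µg/ml tetracycline to repress the transgene. Whether the DNSnf2h line is 1 clone was not given in the sources used here, and how far tetracycline repressed the protein was not measured in these files. Hotspots carry no expression, so the mammary epithelial label was not checked against marker genes.

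Snf2h is the ATPase of the ISWI family of chromatin remodelers, which slide nucleosomes along DNA and space them evenly. The mutated lysine lies in the ATP-binding site that such remodelers need to work. DNase I cuts chromatin where nucleosomes are absent or loosely held, as at active promoters, enhancers and bound insulator sites, so peak cut density is a measure of how open a site is in the cell population. In a population, fewer cells with an open site and a less open site in each cell cannot be told apart.

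The library of the DNSnf2h line had the shorter and weaker list. The parental list held 35083 hotspots with a median peak density of 32.6 and a median width of 675 bp. The DNSnf2h list held 24890 hotspots with a median peak density of 14.6 and a median width of 593 bp. Densities are as deposited, in units scaled by a factor of each library whose target was not given in the sources used here. All densities of a list were whole multiples of 1 step within 0.05 tags, so the median hotspot stood for 105 tags (sequenced fragments) in the parental and 78 in the DNSnf2h library, and the lowest for 42 and 43. Hotspots with at least 4 times the lowest density of their list made up 33.1% of the parental and 16.5% of the DNSnf2h list. The submitters numbered the 2 DNSnf2h libraries 247 and 248 and the other 6 from 83 to 90. What these numbers stand for was not given in the sources used here, and the line and the range of numbers cannot be told apart.

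Peak density was lower in the DNSnf2h library at most sites of both lists, and the difference varied widely from site to site. At the 20111 shared sites the median log2 ratio of DNSnf2h to parental density, as deposited, was -1.51, a 2.84-fold lower density. This median was set to 0, and all ratios below are relative to it unless stated otherwise. The centred ratios had an SD across sites of 0.91, and the middle 50% of sites lay between -0.75 and 0.62. A site was called changed when it differed at least 2-fold from the median, and 25.2% of the 39221 sites did. Lower sites numbered 5213 (13.3%), of which 3598 were shared and 1615 were parental sites that the DNSnf2h list lacks. Higher sites numbered 4684 (11.9%), of which 2435 were shared and 2249 were DNSnf2h sites that the parental list lacks. The split depends on the centring. As deposited, 25320 sites were lower and 38 higher. The higher ones made up 0.150% of the changed sites, against 47.3% after centring. With the median of the strongest of 4 classes of sites, described below, set to 0 in its place, 839 were lower and 12536 higher, which puts 93.7% of the changed sites on the higher side.

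**Figure D1:**
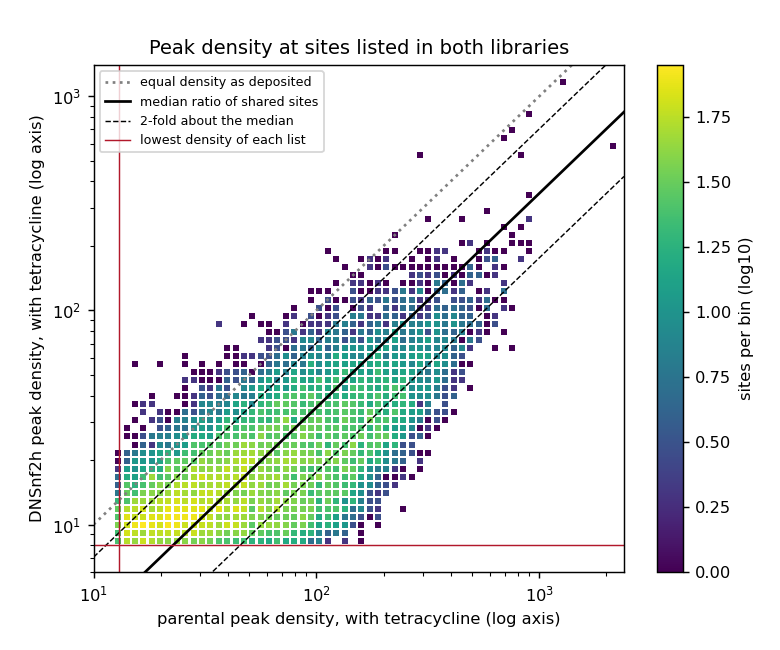
Peak density at each of the 20111 shared sites in the parental library (x, log axis) and in the DNSnf2h library (y, log axis), both with tetracycline, as the number of sites per bin on a log10 colour scale. The solid line marks the median ratio (2.84-fold lower in DNSnf2h as deposited), the dashed lines 2-fold about it and the red lines the lowest density of each list (13.0 and 8.03); above a parental density of about 100 the cloud lies mostly under the solid line.

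A call for a site in 1 list rests on a bound, and the 2 lists begin at different points. The lowest density of the DNSnf2h list, 8.03, corresponds to 22.8 on the parental scale after centring, while the parental list begins at 13.0. Of the parental hotspots' sites, 11757 (33.6%) lay below 22.8, and any such site that the DNSnf2h list also holds has a centred ratio above 0 by construction. A parental site absent from the DNSnf2h list was called lower only from a density of 45.6. A DNSnf2h site absent from the parental list was called higher from 9.17, close to the lowest density of its list. Hotspots are numbered along the genome, and the numbering skips 11882 values in the parental and 5172 in the DNSnf2h list. Whether an absent site lay below the lowest density or was removed from the list is therefore not known for the calls that rest on a bound. The share of parental sites that the DNSnf2h library also listed is therefore given for the strength classes and for the outer width and clustering classes. For classes within a strength class it is not given. Over all sites it was 57.5%, and 82.6% of the DNSnf2h sites were listed in the parental library.

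The site-to-site spread was wider than for the other 2 lines against the same parental library. With tetracycline, 8.57% of 38114 sites were changed in DNBrg1 cells (SD at shared sites 0.54) and 1.06% of 49177 sites in DNCHD4 cells (SD 0.37). The DNSnf2h library without tetracycline had an SD of 0.76 against the same parental library. There 37.3% of 49136 sites were called, of which most were sites in its list alone (14177 of 18313 calls), and 19.0% of its shared sites were called. All 4 comparisons share the parental library with tetracycline and are not independent of each other.

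Strong sites kept the least relative density. Strength was read from the parental library without tetracycline, which stands on neither side of the ratio, and the sites listed there were divided at peak densities of 17.0, 28.6 and 59.2 into 4 classes of nearly equal size. The median centred log2 ratio was 0.67 in the weakest class, 0.38 in the second, -0.14 in the third and -0.78 in the strongest. The strongest class held 7544 sites, of which 7214 were shared. Their median density was 28.9 in the DNSnf2h and 132 in the parental library, and the middle 50% of the ratios ran from -1.29 to -0.17. Of these shared sites, 39.1% were called lower and 2.83% higher. Of all shared sites 17.9% were called lower and 12.1% higher. In the weakest class 0.0404% of the shared sites were lower and 27.4% higher. A shared site, like an unlisted one, can be called lower only from a parental density of 45.6. The shared sites of the weakest class had a median parental density of 22.6, so most of them could not be called lower.

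Listing went the other way. The DNSnf2h library listed 95.7% (95% Wilson interval 95.2 to 96.1) of the parental sites of the strongest class, 70.7% (69.6 to 71.7) of the third, 47.4% (46.3 to 48.5) of the second and 35.8% (34.7 to 37.0) of the weakest. The weak sites with a ratio above 0 are thus the listed minority of their class. When each unlisted parental site was given the lowest density of the DNSnf2h list, which is an upper limit for it, the medians were 0.45 in the weakest class, 0.03 in the second, -0.44 in the third and -0.81 in the strongest. The difference between the strongest and the weakest class was -1.44 over the shared sites. It was -1.18 when the parental list was restricted to densities that correspond to the lowest DNSnf2h density. Against the same parental library this difference was -0.35 for DNBrg1, -0.02 for DNCHD4 and -1.21 for DNSnf2h without tetracycline.

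The relation with strength was not a straight line. In doubling steps of the parental density without tetracycline, limits that were chosen after the data had been seen, the median ratio was 0.63 under a density of 20, 0.18 from 20 to 40, -0.42 from 40 to 80 and -0.84 from 80 to 160. It was -0.86 from 160 to 320 and -0.74 from 320 to 640 (310 shared sites), and -0.41 in the 34 shared sites from 640 up. The DNSnf2h library listed 37.0% of the parental sites under 20, 56.5% from 20 to 40 and 82.9% from 40 to 80. It listed 97.6% of those from 80 to 160, so unlisted sites were few from there on. Median densities in the step from 160 to 320 were 46.7 in the DNSnf2h and 239 in the parental library. The medians were thus lowest in the steps from 80 to 640.

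**Figure D2:**
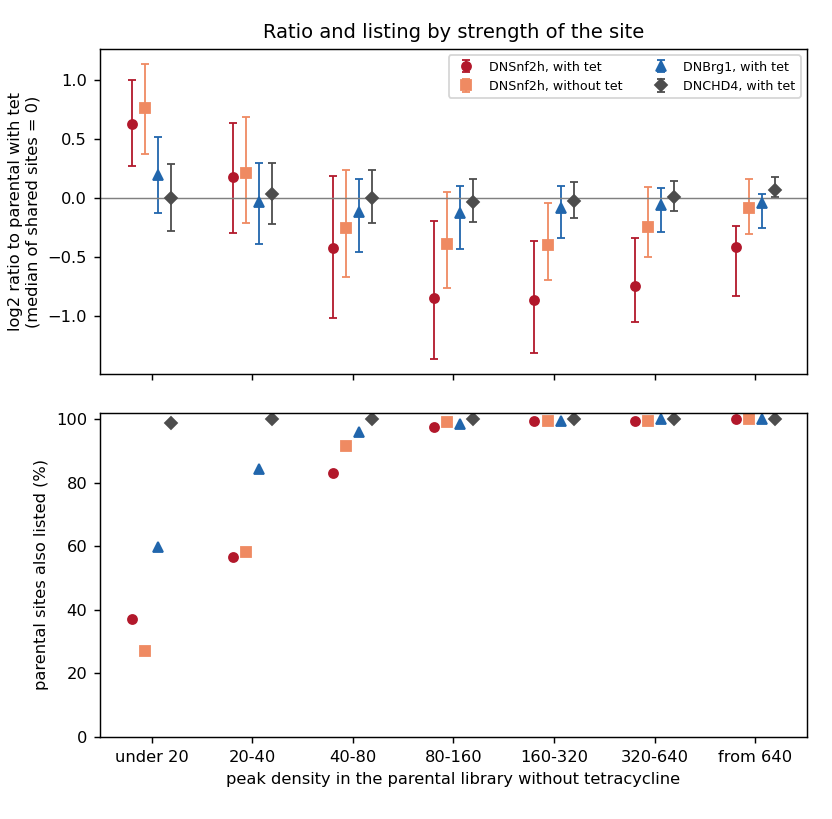
Top, median centred log2 ratio to the parental library with tetracycline (points) and the middle 50% of sites (bars) by doubling step of peak density in the parental library without tetracycline (x), for 4 libraries. Bottom, the share of parental sites that each library also lists; DNSnf2h with tetracycline goes from 0.63 under 20 to -0.86 at 160 to 320, while DNCHD4 stays near 0.

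Within the strongest class the sites differed widely. The SD of the ratio across these sites was 0.80 for DNSnf2h with tetracycline, beside 0.64 for DNSnf2h without it, 0.48 for DNBrg1 and 0.27 for DNCHD4. The median stood at -0.36 for DNSnf2h without tetracycline, -0.12 for DNBrg1 and -0.02 for DNCHD4. Of the 7544 sites, 3098 were lower and 209 higher by at least 2-fold, bounds included.

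**Figure D3:**
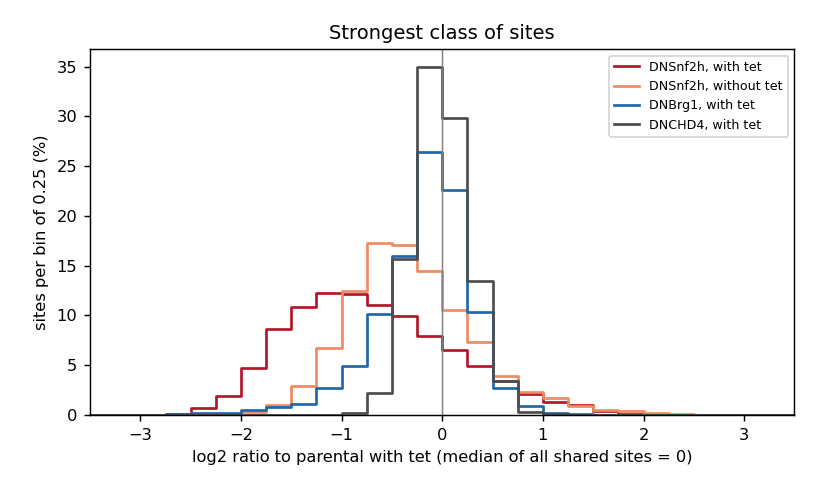
Share of the strongest class's shared sites per bin of 0.25 (y) by centred log2 ratio to the parental library with tetracycline (x), for 4 libraries. The DNSnf2h library with tetracycline spreads around -0.78 with an SD of 0.80, and DNCHD4 stands close to 0 with an SD of 0.27.

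The 3098 lower sites of the strongest class were mostly listed in every other line as well. Over the sites that each library listed, the parental line had a median density of 140 with tetracycline and 103 after removal. DNBrg1 had 128 and 84.2, and DNCHD4 126 and 143. It was 18.9 in the DNSnf2h library with tetracycline, which listed 2823 of them, and 25.0 in the one without, which listed 3031. The 6 libraries of the other lines each listed 3084 to 3098 of them. All 6 libraries outside this comparison, DNSnf2h without tetracycline among them, listed 3020 of the 3098. With tetracycline, DNBrg1 listed 98.4% and DNCHD4 100% of the parental sites of the whole strongest class. The sites were chosen for a low value in the DNSnf2h library with tetracycline beside a high parental one, so these 2 values describe the choice. The class was cut at 59.2 in the parental library without tetracycline, so listing and density there describe the choice too. Over the whole strongest class the medians of the DNSnf2h libraries were 28.9 with and 30.6 without tetracycline. After centring, the library without tetracycline was at least 2-fold lower at 22.7% of the 3031 lower sites that it listed. The 209 higher sites of that class had medians of 74.3 in the DNSnf2h and 85.9 in the parental library with tetracycline. These medians are as deposited. In the DNCHD4 library with tetracycline their median density was 116, and in that of DNBrg1 78.5.

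Wide sites also had lower ratios, and the difference was smaller within strength classes. By width of the hotspot in the parental library without tetracycline, divided at 568, 672 and 852 bp, the median ratio was 0.56 in the narrowest class, 0.25 in the second, -0.22 in the third and -0.61 in the widest. The DNSnf2h library listed 36.0% of the parental sites of the narrowest and 84.6% of those of the widest class. Within the strongest class the medians were -0.78 in the second, -0.71 in the third and -0.81 in the widest width class, and -0.28 in the narrowest, which held 40 shared sites. From narrowest to widest they were -0.05, -0.13, -0.06 and -0.33 within the third class, 0.41, 0.37, 0.40 and 0.33 within the second, and 0.66, 0.66, 0.80 and 0.79 within the weakest. The difference of -1.16 between the widest and narrowest classes over all shared sites was -0.30 for DNBrg1, -0.02 for DNCHD4 and -0.93 for DNSnf2h without tetracycline.

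The sites themselves were narrower in the DNSnf2h list. At shared sites the widest hotspot of a list had a median width of 625 bp in DNSnf2h and 768 bp in the parental list, and 84.5% of the sites were narrower in DNSnf2h. The lower sites of the strongest class measured 650 bp against 979 bp in the parental list, a median ratio of 0.69, and 98.7% of them were narrower. The higher sites of that class measured 860.5 bp against 878.5 bp. Width and density thus moved together, and the part of the lists' density thresholds in the widths was not tested. In 487 shared sites the DNSnf2h list held more hotspots than the parental list, against 66 the other way.

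Neighbourhood made a small difference over all sites and a clearer one among strong sites. Clustering was counted as the number of other hotspots of the parental library without tetracycline within 50 kb. The median ratio over all shared sites was 0.14 with no such neighbour, 0.10 with 1, 0.07 with 2 to 3, -0.04 with 4 to 7 and -0.14 with 8 or more. The difference of -0.29 turned to 0.018 when the parental list was restricted to densities that correspond to the lowest DNSnf2h density. The share of parental sites listed in DNSnf2h was 58.3% with no neighbour and 57.3% with 8 or more.

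Among strong sites, isolated ones had the lower ratios. In the strongest class the median was -0.999 with no neighbour (621 shared sites), -0.91 with 1, -0.83 with 2 to 3, -0.70 with 4 to 7 and -0.63 with 8 or more (1097 shared sites). Parental density was similar over these classes, with a median of 133 for no neighbour and 127 for 8 or more, whereas DNSnf2h density was 25.0 and 30.8. The share at least 2-fold lower was 49.8% with no neighbour and 29.3% with 8 or more. In doubling steps, with all sites from a density of 160 up pooled, the order was the same. From 80 to 160 the median went from -1.08 with no neighbour to -0.64 with 8 or more, and from 160 up from -0.91 to -0.74. In the weaker classes it ran the other way, from 0.74 to 0.56 in the weakest and from 0.43 to 0.26 in the second class. This difference of 0.37 was 0.10 with neighbours counted within 200 kb, 2.13 within 10 kb (28 shared sites in the smaller class) and 0.22 against DNCHD4 in place of the parental library. Against the same parental library it was 0.003 for DNBrg1, 0.10 for DNCHD4 and 0.07 for DNSnf2h without tetracycline.

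**Figure D4:**
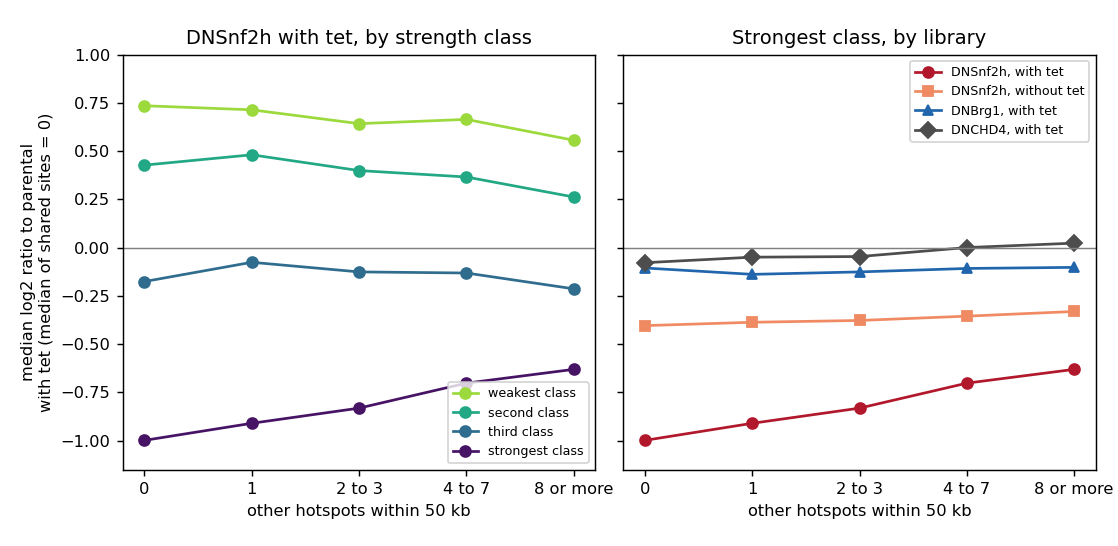
Left, median centred log2 ratio of DNSnf2h to parental density, both with tetracycline (y), by the number of other hotspots within 50 kb in the parental library without tetracycline (x), 1 line per strength class. Right, the same for the strongest class in 4 libraries; DNSnf2h with tetracycline goes from -0.999 to -0.63 and DNBrg1 stays between -0.14 and -0.10.

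A site was placed in a dense cluster when 20 or more other hotspots of the 2 lists together lay within 50 kb of its midpoint. A place listed in both libraries thus counts once per list. Dense clusters held 1089 sites in 150 blocks. In the strongest class their median ratio was -0.41 (284 shared sites), against -0.79 elsewhere. Of their strongest-class sites 22.9% were lower and 11.6% higher, against 41.8% and 2.40% elsewhere. A few blocks stood apart. On chromosome 11 from 3023556 to 3100117, 29 shared sites had a median density of 73.6 in DNSnf2h and 75.0 in the parental library, a median ratio of 1.29. On chromosome 8 from 19884120 to 19963351, 13 shared sites had a median ratio of 1.74, and from 19679262 to 19763142, 11 had one of 1.48. These 3 blocks were picked out after their values were seen. In such blocks a list can begin far above its lowest density elsewhere: on chromosome 11 the lowest density listed was 33.99 in DNSnf2h and 46.5 in the parental library.

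The same classes were read in a pair of libraries that shares none with this one, DNSnf2h over parental without tetracycline. At 15309 sites listed in both pairs and in the DNCHD4 library with tetracycline, which gave the strength classes here, the ratios of each pair were centred on their own median, -1.73 with and -1.48 without tetracycline as deposited, so they are not on the scale used above. They had a Pearson r of 0.74 and a Spearman rho of 0.75. This is a description across sites, which share their line and lists, and carries no test. The medians from the weakest to the strongest class were 0.68, 0.06, -0.33 and -0.52 with tetracycline, and 0.63, 0.12, -0.21 and -0.38 without it. With tetracycline 2385 (15.6%) of these sites were lower and 2212 (14.4%) higher, and without it 518 (3.38%) were lower and 1506 (9.84%) higher. Lower in both pairs were 352 sites, which are 14.8% of the first list and 68.0% of the second. Higher in both were 860, or 38.9% and 57.1%. The order of the strength classes was thus the same in both tetracycline states. Among strong sites the medians for no neighbour and for 8 or more were -0.79 and -0.39 with tetracycline, and -0.42 and -0.33 without it.

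The named sites are the extremes of each ranking, with sites in dense clusters left out of all but the last, on build mm9. The ranking used the densities of both libraries, so their ratios describe these 2 libraries. The lowest ratio among shared sites was on chromosome 9 from 104164949 to 104165866. In the parental line its peak density was 248 with tetracycline and 166 after removal. DNBrg1 had 202 and 136, DNCHD4 199 and 218, and DNSnf2h 12.0 and 24.4. As deposited only the 2 DNSnf2h libraries were low. The one without tetracycline was 3.48-fold lower as deposited at the median of its sites shared with the parental library with tetracycline. Its centred ratio at this site was -1.55. With tetracycline the centred log2 ratio was -2.87, a 7.31-fold lower density (exact binomial 95% interval on tags 5.66 to 9.59), and 20.8-fold lower as deposited.

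The next was on chromosome 8 from 13158797 to 13159467, where the parental line had 161 and 154 (with tetracycline first here and below), DNBrg1 180 and 104, DNCHD4 158 and 178, and DNSnf2h 8.03 and 23.4. The value of 8.03 is the lowest density of the DNSnf2h list. The third, on chromosome 1 from 60623130 to 60624403, had parental densities of 190 and 123. DNBrg1 had 168 and 85.7 there, DNCHD4 143 and 187, and DNSnf2h 10.3 and 19.8. The centred ratios of these sites were -2.82 and -2.71, or 7.07-fold (5.17 to 9.88) and 6.52-fold (4.95 to 8.76) lower. The other 3 lay on chromosome 13 from 91599626 to 91601083, on chromosome 3 from 65761773 to 65762755 and on chromosome 11 from 102157806 to 102158816. Their density was 160 to 193 in the parental library with tetracycline and 9.15 to 10.6 in that of DNSnf2h, with centred ratios of -2.67, -2.64 and -2.62. At all 6 sites the DNSnf2h library without tetracycline stood between 19.8 and 30.2, and the 6 libraries of the other lines stood at 76.8 or more. These densities are as deposited. After centring, the ratio of the DNSnf2h library without tetracycline was -1.55 to -0.88 at the 6 sites. All 6 are in the strongest class.

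Strong parental sites that the DNSnf2h list lacks had a similar profile. On chromosome 10 from 80217443 to 80218167 the parental line had densities of 241 and 162, DNBrg1 235 and 138, and DNCHD4 165 and 231. In DNSnf2h the site was absent from the list with tetracycline and stood at 18.5 without it. If a density above 8.03 would have been listed, the site was at least 10.6-fold lower than the median ratio gives. The DNSnf2h list held 6 hotspots within 50 kb, the lowest at 11.4, and against that value the fold would be 7.44. On chromosome 5 from 135114879 to 135115766 the parental densities were 203 and 159, and the DNSnf2h library without tetracycline listed 22.6, a bound of at least 8.89-fold and 5.31-fold against the local value.

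The other 3 such sites were on chromosome 3 from 30992423 to 30994206, on chromosome 7 from 137690091 to 137691293 and on chromosome 3 from 97816889 to 97818419. Their parental densities with tetracycline were 201, 179 and 169. The DNSnf2h library without tetracycline listed 12.3, 15.9 and 24.0 there. The bounds were at least 8.80-fold, 7.85-fold and 7.42-fold, and 2.91-fold, 6.25-fold and 5.50-fold against local values. The first of these has 1 DNSnf2h hotspot within 50 kb, at 24.3, so its local value says little. The hotspot numbers run along the genome and skip some values, and the DNSnf2h list skips none at these 5 positions. In the 6 libraries of the other lines the 5 sites ranged from 68.6 to 241.

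The sites with the highest ratios had parental densities of 15.5 to 36.0, which the ranking by ratio partly fixes, and their densities varied between the other lines too. On chromosome 1 from 196735080 to 196735749 the parental line had densities of 15.5 and 23.2, DNCHD4 35.8 and 18.4, and DNSnf2h 56.0 and 25.0. In DNBrg1 the site was listed after removal of tetracycline alone, at 13.8. The DNSnf2h library with tetracycline stood above the other 7. The centred ratio was 3.36, or 10.3-fold (7.59 to 14.1) higher, and 3.61-fold higher as deposited. On chromosome 3 from 94138266 to 94138940 the parental line had 20.2 and 18.8, DNBrg1 24.6 and 39.3, DNCHD4 30.8 and 19.8, and DNSnf2h 54.7 and 13.9. That is 7.72-fold (5.88 to 10.3) higher after centring, and here the DNSnf2h library without tetracycline was the lowest of the 8.

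The third, on chromosome 6 from 13002083 to 13003317, had parental densities of 36.0 and 39.4. DNBrg1 had 79.7 and 37.5 there, DNCHD4 84.4 and 40.1, and DNSnf2h 86.8 and 43.3. There 3 libraries with tetracycline stood at 79.7 to 86.8, and the parental library with tetracycline was the lowest of all. The centred ratios to that parental library were 2.78 for DNSnf2h, 1.16 for DNBrg1 and 1.20 for DNCHD4, all with tetracycline. The other 3 sites were on chromosome 6 from 65556620 to 65557470, on chromosome 18 from 64204761 to 64205576 and on chromosome 15 from 34280895 to 34281554. They went from 26.7, 15.8 and 18.3 in the parental to 62.0, 35.9 and 40.9 in the DNSnf2h library with tetracycline, centred ratios of 2.72, 2.69 and 2.67. At 5 of the 6 sites the DNSnf2h library with tetracycline was the highest of the 8, and on chromosome 18 the DNCHD4 library with tetracycline was higher, at 42.2. The ranking by ratio partly fixes a high value in the DNSnf2h library with tetracycline too. Without tetracycline DNSnf2h stood at 11.9 to 43.3 over the 6. As deposited all 6 were still 2.24-fold to 3.61-fold higher.

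**Figure D5:**
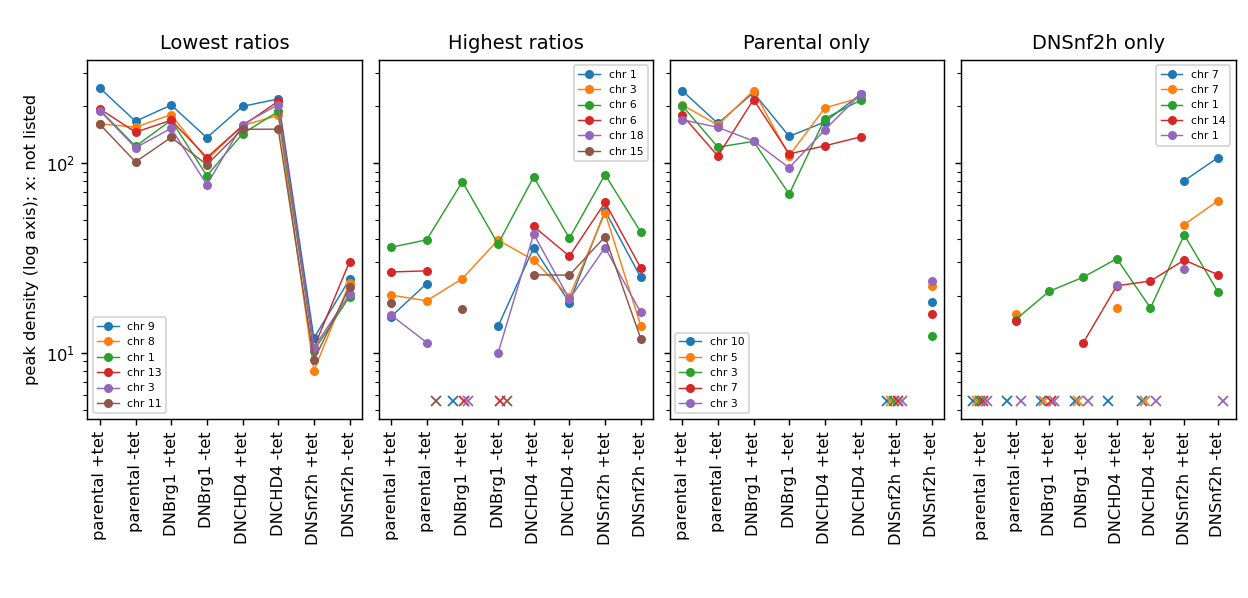
Peak density (y, log axis) in the 8 libraries (x) at the named sites, in 4 panels: lowest ratios, highest ratios, sites in the parental list alone and sites in the DNSnf2h list alone; a cross at the foot marks a library that does not list the site, and lines join values of 1 site. In the first panel the 6 sites stand at 76.8 or more in the parental, DNBrg1 and DNCHD4 libraries and at 8.03 to 30.2 in the DNSnf2h libraries. Densities are as deposited and not centred.

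Sites listed by the DNSnf2h library and not by the parental one were mostly weak and narrow. The 4244 sites had a median density of 9.34, close to the lowest of the list, and a median width of 433 bp. The DNCHD4 library with tetracycline listed 46.4% of them and the DNSnf2h library without it 17.2%. No library of another line listed 1984 (46.7%), and of these 119 were in both DNSnf2h libraries and 1865 in the one with tetracycline alone. Of the 4244, 15 reached 4 times the lowest density of the list. These 15 had a median of 34 other hotspots of the parental library without tetracycline within 50 kb, beside 2 for the 4244. That library listed 11 of the 15, and the DNSnf2h library without tetracycline listed 14.

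Outside dense clusters, an exception was a pair of neighbouring sites on chromosome 7. From 148377858 to 148379083 DNSnf2h had densities of 80.7 and 107, and no other library listed the site. The bound is at least 17.6-fold higher after centring and 6.20-fold as deposited. The parental list held 8 hotspots within 50 kb, the lowest at 27.3, against which the site is 8.40-fold higher after centring. From 148376898 to 148377524 the density was 47.4 and 63.3 in DNSnf2h, 16.0 in the parental line without tetracycline and 17.2 in DNCHD4 with it, with no value in the other 4 libraries. Both sites were higher without tetracycline than with it in the DNSnf2h line, and the parental list skips no number there.

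The remaining 3 ranked sites were less clear. On chromosome 1 from 130295373 to 130296252 DNSnf2h had 41.8 with tetracycline, and the other libraries apart from the parental one with tetracycline listed 14.9 to 31.3. The parental list lacks 1 number at that position, and against its lowest local value, 62.0, the site is 1.92-fold higher after centring, so a 2-fold difference is not shown. On chromosome 14 from 52114193 to 52115450, at 30.8 in DNSnf2h, the parental list lacks 4 numbers, so no bound is given. On chromosome 1 from 71966358 to 71966971 DNSnf2h had 27.6 and DNCHD4 22.9, both with tetracycline, and no other library listed the site.

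The 3 sites with the highest parental density were not among the lowest ratios. On chromosome 17 from 39979698 to 39985945, a region 6248 bp long, the parental line had densities of 2126 and 4129, DNBrg1 1802 and 5222, DNCHD4 1832 and 4689, and DNSnf2h 567 and 1459. It was higher without tetracycline in all 4 lines. The centred ratio with tetracycline was -0.40. On chromosome 13 from 85266247 to 85267366 the parental line had 1225 and 809, DNBrg1 1585 and 1373, DNCHD4 1993 and 977, and DNSnf2h 1166 and 459. There the DNSnf2h density with tetracycline was nearly the parental one, a log2 ratio of -0.07 as deposited and 1.43 (2.70-fold higher, 2.60 to 2.81) after centring. On chromosome 17 from 57170648 to 57172015 the parental and DNSnf2h densities with tetracycline were 936 and 274, a centred ratio of -0.27.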

How the data were processed

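The deposited data are hotspot lists, 1 for each library, in which the authors give a peak and an average tag density per hotspot, a signal (coverage density) per the file headers. Per the submitters' processing notes, CASAVA 1.6 and build mm9 were used. How hotspots were called, the filters and the scaling target were not given in the sources used here. Total depth is unknown. The hotspot numbering has gaps, 11882 numbers in the parental and 5172 in the DNSnf2h list with tetracycline.

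Groups were taken from the submitters' labels. Hotspots were merged at 1 bp of overlap. For a site in 1 list, the lowest density listed in the other library gave a bound. Tags are density over the library's step. Intervals are at 95%. Those on folds are exact binomial on tags and cover counting error only, because without molecular identifiers reads are not independent molecules. Those on shares of sites are Wilson intervals that take sites as independent, which sites of 1 library are not, and they describe these lists only. With 1 library per group there is no test. Named sites are the 6 lowest and 6 highest centred ratios, the 5 strongest sites of each list alone and the 3 strongest shared sites. All but the last 3 were limited to sites with fewer than 20 other hotspots of the 2 lists together within 50 kb. The members, classes and lists were chosen with earlier results of these data known. Sequences, genes, motifs and promoters were not analysed here. The alternatives changed the scaling, site value, merging, fold, thresholds, tag minimum, reference library, class limits, cluster window, dense clusters and chromosome X. The software was matplotlib 3.10.9, scipy 1.17.1, pandas 2.3.3 and numpy 2.4.6 under Python 3.11.15.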

Additional observations from a re-analysis of the deposited data

How the results depend on the processing

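The direction of the strength and width differences held under all alternatives run, and that of clustering over all sites did not. Lower sites numbered 25320 as deposited, 839 centred on the strongest class, 17938 by mean density, 1527 at 3-fold, 2287 with lists restricted to 2 times their lowest density and 3137 at shared sites with at least 50 tags. In the same order higher sites numbered 38, 12536, 6955 and 754, and they were 2435 at shared sites, 3085 at a common centred threshold, 1772 with restricted lists and 2077 with 50 tags. Against DNCHD4 in place of the parental library 3518 were lower and 5062 higher, which is 59.0% of the calls. The strength difference was -1.33 by mean density, -1.18 at the common threshold, -1.78 with the parental library with tetracycline as reference, -1.55 between the outer 10% of sites and -1.29 against DNCHD4 in place of the parental library. In this order the width difference was -0.98, -0.89, -1.39, -1.29 and -1.02, and -1.11 with restricted lists, -1.08 with 50 tags and -1.02 with DNBrg1 and DNCHD4 as reference. The clustering difference was -0.20 by mean density, 0.018 at the common threshold (reversed), -0.13 with restricted lists, -0.16 with the DNBrg1 and DNCHD4 reference, 1.14 in 10 kb windows (reversed, 45 sites in the smaller class), -0.45 in 200 kb windows and -0.37 against DNCHD4. In the strongest class, a contrast added after the data were seen, it was 2.13 in 10 kb windows (28 sites), 0.10 in 200 kb windows and 0.22 against DNCHD4. The comparison with DNCHD4 and the doubling steps were also added after the data were seen. Restricted lists and tag minimums hold fewer sites by construction, and for the other shifts the cause was not tested. Of 75 values of named sites under 3 alternatives, 39 moved and 1 reversed: the site on chromosome 13 from 85266247, at -0.072 as deposited. Merging within 150 bp, leaving out chromosome X and leaving out dense clusters moved none of these counts or class differences beyond the limits used. No paired analysis was possible because the 2 groups compared have 1 library each, and a line's library without tetracycline is another condition and no replicate. Depth sets a counting error of 9.76% on the median parental and 11.3% on the median DNSnf2h hotspot.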

Other observations

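The median centred ratio of DNSnf2h to parental density, both with tetracycline, was -0.37 on chromosome X (403 shared sites), the lowest of all chromosomes, and 0.22 on chromosome 3 and 0.20 on chromosome 13, the highest. Of the shared sites on chromosome X, 38.7% were in the strongest class. Measured from the median of their own strength class, chromosomes ranged from -0.12 on chromosome 9 to 0.16 on chromosome 3, with chromosome X at -0.10 and chromosome 13 at 0.11.

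In 225 windows of 10 Mb with at least 30 shared sites, the same measure ran from -0.36 to 0.60 with an SD of 0.19 across windows, beside 0.24 for DNBrg1 and 0.07 for DNCHD4 against the same parental library. The lowest was chromosome 9 from 100 to 110 Mb, with 128 shared sites, which also holds the site of the lowest ratio. The highest were chromosome 1 from 40 to 50 Mb at 0.60 and from 140 to 150 Mb at 0.57, and chromosome 6 from 60 to 70 Mb at 0.52. In the first 2 of these windows of chromosome 1 the DNSnf2h library without tetracycline stood at 0.36 and 0.35, and DNBrg1 at 0.05 and 0.17.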
